A study of Homo sapiens with 12 samples.

Results

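Small nucleolar RNA host genes (SNHG) and related snoRNA host transcripts were examined in stem cell-derived pancreatic alpha cells under endoplasmic reticulum (ER) stress. The members were taken by name: every row of the count table whose symbol is SNHG followed by a number, together with GAS5, ZFAS1, DANCR and EPB41L4A-AS1. This gave 32 of the 28278 gene symbols in the table, and 28 of the 32 had enough counts to be tested.

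Pancreatic alpha cells secrete glucagon. Those studied here were made from the human embryonic stem cell line HUES-8, so all 12 samples share 1 genome and no islet tissue was included. In both groups the cells were kept for 48 h in bioreactors of 30 mL stirred at 40 rpm, and neither group carried a genetic change that the labels name. The DMSO group (6 samples) received the solvent, and the tunicamycin group (6 samples) received 5 uM tunicamycin, which blocks N-glycosylation of new proteins so that unfolded protein accumulates in the ER. Samples of each group are numbered 1 to 6 as biological replicates, with numbers 1 to 3 in sequencing batch 1 and 4 to 6 in batch 2. The labels leave unsaid whether each replicate was a differentiation of its own, and the p-values therefore refer to the spread among these 12 samples.

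A snoRNA host gene carries small nucleolar RNAs in its introns. Splicing releases the intron, the snoRNA is trimmed out of it and guides the chemical modification or processing of ribosomal RNA (box C/D snoRNAs guide 2′-O-methylation and box H/ACA snoRNAs guide pseudouridylation), and the spliced exons are left as a long RNA. Many hosts begin with a run of pyrimidines, the 5′ terminal oligopyrimidine (TOP) motif that they share with ribosomal protein mRNAs, and spliced hosts such as GAS5 and ZFAS1 are known targets of nonsense-mediated decay, the pathway that destroys RNAs with an early stop codon. Phosphorylation of eIF2alpha during ER stress is known to reduce both translation and this decay.

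RefSeq places 147 snoRNA genes inside members, 83 of them in SNHG14 and 64 in the others. The 64 are 38 box C/D, 22 box H/ACA and 4 small Cajal body RNAs, and 30 of the 32 members hold at least 1 (none lies within SNHG27 or SNHG28). The start of the transcript was read from RefSeq promoters (GRCh38.p14), which were found for 28 members, not the same set as the 28 tested. SNHG6, SNHG9, SNHG15 and SNHG25 had no promoter there and were not searched, while the untested SNHG22, SNHG26 and SNHG27 were. A C followed by at least 3 more pyrimidines (C or T) stands at the annotated start of 9 of the 28 searched (32.1%): SNHG4, SNHG5, SNHG7, SNHG12, SNHG18, SNHG19, SNHG26, SNHG32 and ZFAS1. The same run begins 39 of 58 ribosomal protein genes (67.2%) and 5.45% of all promoters in the table. These windows run from 40 bases before the annotated start to 30 bases from it on and show 4 members with the run, in capitals, and 2 members without one at the RefSeq start. They are shown because the start is the feature that links hosts with ribosomal protein genes. The score holds for the RefSeq start only, and annotations can place the start elsewhere. GAS5, on the minus strand, starts at 173869045 in RefSeq and at 173868882 in GENCODE, while EPB41L4A-AS1 starts at 112160526 in both. The part of such differences in the 32.1% and 67.2% was not tested.
SNHG7, chr9:136728155-136728224, minus strand: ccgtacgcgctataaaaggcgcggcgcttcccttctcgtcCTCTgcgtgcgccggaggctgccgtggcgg
SNHG5, chr6:85678704-85678773, minus strand: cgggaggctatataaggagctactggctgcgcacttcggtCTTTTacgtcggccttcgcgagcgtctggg
ZFAS1, chr20:49278602-49278671, plus strand: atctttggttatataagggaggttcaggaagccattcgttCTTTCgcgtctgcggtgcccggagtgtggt
SNHG12, chr1:28581844-28581913, minus strand: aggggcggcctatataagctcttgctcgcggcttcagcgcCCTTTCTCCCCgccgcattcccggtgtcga
GAS5, chr1:173869016-173869085, minus strand: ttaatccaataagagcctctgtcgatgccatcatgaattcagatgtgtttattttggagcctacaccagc
EPB41L4A-AS1, chr5:112160486-112160555, plus strand: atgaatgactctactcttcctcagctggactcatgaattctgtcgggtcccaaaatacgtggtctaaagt

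SNHG7 was the only member that passed the test in the comparison of the groups, and its RefSeq promoter (GRCh38.p14, 250 bases before the start and 50 after) is shown for that reason. The capitals mark CACGTG, the E-box core, which reads the same on both strands. It is present in the promoters of 2 of the 28 members searched (SNHG7 and SNHG30, 7.14%) and in 7.43% of all promoters.
SNHG7 promoter, chr9:136728135-136728434, minus strand: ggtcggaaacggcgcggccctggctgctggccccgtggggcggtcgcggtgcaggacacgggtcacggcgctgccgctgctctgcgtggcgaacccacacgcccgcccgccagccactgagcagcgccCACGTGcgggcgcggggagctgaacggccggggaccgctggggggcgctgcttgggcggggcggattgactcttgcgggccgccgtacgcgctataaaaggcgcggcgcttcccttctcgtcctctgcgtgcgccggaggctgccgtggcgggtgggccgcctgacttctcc
Motifs of factors active in ER stress were searched on both strands of the same windows. TGATGNAA, a core of the CHOP and ATF4 composite element, was found in 0 of the 28 members searched and in 3.67% of all promoters. The ER stress element (CCAAT and CCACG with 9 bases between) was found in 0 of 28 and in 0.0806%, and TGACGTGG, a core bound by XBP1 and ATF6, in 0 of 28 and in 0.795%. A missing match says only that these letters are not in the window. SNHG7 hosts 2 box H/ACA snoRNAs, SNORA17A and SNORA17B, and the sequence of SNORA17A in GENCODE 29 (GRCh38) is given with the ACA box near the 3′ end in capitals.
SNORA17A, chr9:136726747-136726879, minus strand: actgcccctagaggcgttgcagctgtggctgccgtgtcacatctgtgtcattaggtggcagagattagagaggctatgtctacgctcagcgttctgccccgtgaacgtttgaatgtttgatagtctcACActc

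Libraries held 17523442 to 28872269 counts. HSPA5, the main ER chaperone, rose from 845 ± 144 to 5270 ± 1022 CPM (counts per M of the TMM-scaled library size, mean ± SD, n = 6 per group), and all 7 genes of a list that checks the treatment were called higher, among them HERPUD1 (log2 fold change 2.28) and DDIT3 (2.13). Each of 9 alpha cell markers was detected in every library, GCG at 44760 to 91980 CPM; 0 were called higher and 1 lower (CRYBA2, -1.80), while GCG and IRX2 had estimates of -0.39 and -0.22. With sample number as a block a second alpha cell marker, GC, the gene of the vitamin D-binding protein, was lower as well (adjusted p = 0.018, against 0.44 without the block; log2 fold change -0.31). Markers of other cells were present as well and differed between libraries: the sum of 13 heart muscle markers ran from 11.5 to 2269 CPM in DMSO and from 15.6 to 1175 CPM in tunicamycin, with NKX2-5 and TBX5 at 0 in some libraries and no other marker at 0 in any. The sum of 14 mesenchymal markers ran from 775 to 2369 CPM in DMSO and from 422 to 1383 CPM in tunicamycin. Neither list held a gene called by edgeR (3 of 13 and 5 of 14 at an unadjusted p under 0.05, median log2 fold change -2.19 and -1.09, with ACTC1 at -2.89, NKX2-5 at -2.72 and NPPB at 1.91, and THY1 at -1.44, COL1A2 at -1.33 and COL3A1 at -1.51). With sample number as a block 9 of 14 mesenchymal markers were called lower, and of the heart markers 2 were called lower (ACTC1 and MYL4) and 1 higher (NPPB). Of 10 proliferation markers 0 were called, and 3 were lower with the block (0 at an unadjusted p under 0.05 without it, median -0.24; CCNB1 -0.34, TOP2A -0.36, BIRC5 -0.37). The part of other cell types in the results on the host transcripts was not tested. In bulk RNA, fewer cells of a type and less RNA per cell cannot be told apart.

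SNHG7 rose with tunicamycin and was the only 1 of the 28 tested members that edgeR called; with sample number as a block EPB41L4A-AS1 was called too. Of the 28 tested, 1 was called higher (SNHG7) and 0 lower at an adjusted p under 0.05, which is 3.57%, against 7.84% of all 17137 genes tested (4.56% higher and 3.29% lower). At an unadjusted p under 0.05 there were 2, SNHG7 and EPB41L4A-AS1. With sample number as a block, 2 members were called higher, again SNHG7 and EPB41L4A-AS1, against 17.3% of all genes (8.92% higher and 8.4% lower). DESeq2 and limma-voom each called SNHG7 alone. The estimate was above 0 for 16 members and below 0 for 12, and the median log2 fold change was 0.06, beside -0.01 for all genes. In 17 of 28 members the estimate lay between the quartiles of all genes, -0.21 and 0.18. The 95% interval lay within 1.5-fold in both directions for 16 members and reached beyond it for 12. The median SE was 0.162 for the members and 0.159 for all genes. For no member were all DMSO samples on one side of all tunicamycin samples, which was the case for 3.77% of all genes.

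**Figure D1:**
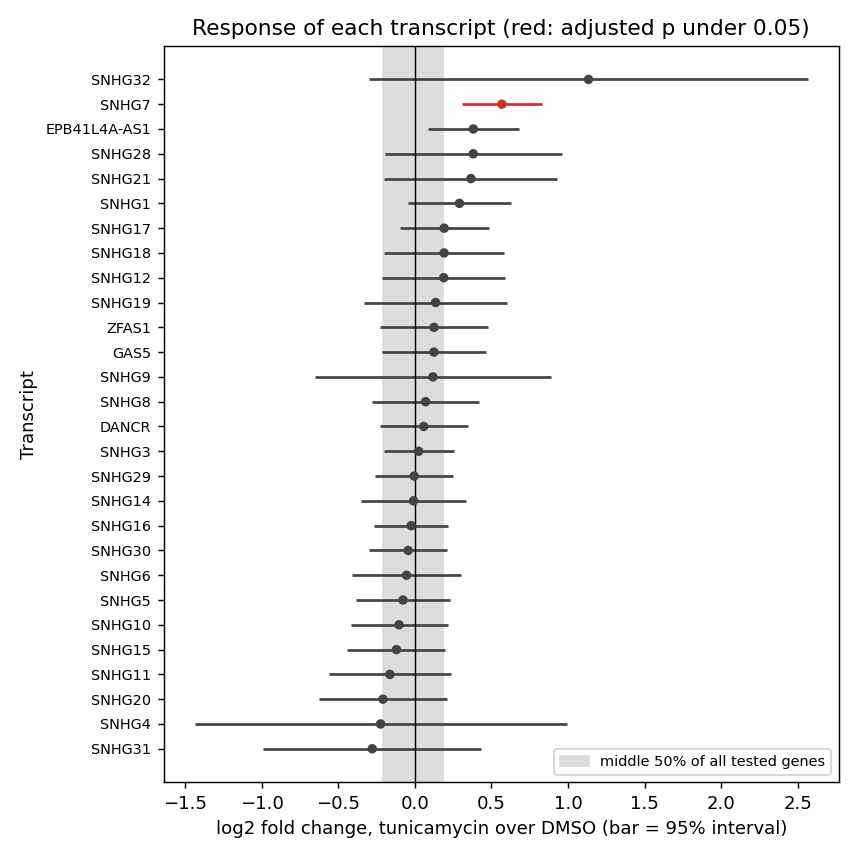
Log2 fold change, tunicamycin over DMSO, of each of the 28 tested transcripts, with its 95% interval; the grey band spans the middle of all genes tested (quartiles -0.21 and 0.18). SNHG7, in red, is the only transcript with an adjusted p under 0.05, and SNHG32 has the widest interval, from -0.30 to 2.57.

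The members together made up 0.0718% of counts in DMSO 6 (95% exact binomial interval 0.0707 to 0.0729%, counting error only) to 0.101% in DMSO 3 (0.0993 to 0.102%). The mean share was 0.0883 ± 0.0128% in DMSO and 0.0912 ± 0.0047% in tunicamycin (SD, n = 6 each). It was higher with tunicamycin in numbers 2, 4 and 6 and lower in numbers 1, 3 and 5. The groups overlapped, and the tunicamycin samples lay closer to each other.

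SNHG7 (chromosome 9, 136721366 to 136728184, minus strand, GRCh38 in GENCODE 29) is the antisense-annotated host of SNORA17A and SNORA17B. In DMSO 1 to 6 it was measured at 25.3, 17.1, 20.0, 24.0, 28.3 and 19.9 CPM, and in tunicamycin 1 to 6 at 29.9, 37.1, 27.5, 35.6, 33.7 and 35.8 CPM. Every tunicamycin sample exceeded the DMSO sample of its number, and the groups touched only where DMSO 5, the highest of its group, lay above tunicamycin 3, the lowest of its group. The mean rose 1.48-fold, from 22.5 ± 4.1 to 33.3 ± 3.8 CPM (SD, n = 6 each), a log2 fold change of 0.57 ± 0.12 (SE, 95% interval 0.31 to 0.83, adjusted p = 0.011). A rise in 6 of 6 pairs was seen in no other member and in 10.7% of all genes, and 0 members fell in 6 of 6 pairs, against 10.4% of all genes. The estimate was 0.60 in batch 1 and 0.54 in batch 2, with adjusted p = 0.43 and 0.079 when each batch of 3 against 3 was fitted alone. SNHG7 remained called after removal of any single library (log2 fold change 0.51 to 0.64, adjusted p 0.0075 to 0.031), and its estimate was 0.75 (adjusted p = 0.018) without numbers 1 and 5, an alternative chosen after seeing the data because those pairs had the DMSO libraries richest in heart markers.

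SNHG7 overlaps DIPK1B, a protein-coding gene on the other strand, and the strand setting of the counting is unknown here, so reads of the overlap cannot be assigned with certainty. DIPK1B had 56.5 ± 10.5 CPM in DMSO and 46.2 ± 7.0 CPM in tunicamycin (log2 fold change -0.29 ± 0.14, adjusted p = 0.23, or 0.044 with the block), and was lower with tunicamycin in all 6 pairs. SNORA17A and SNORA17B had 0 counts in the 12 libraries. If their reads could be counted to these rows, that allows up to 0.011 unscaled CPM each (3 counts in 273017539). RefSeq places both inside LOC124900276 as well. Elsewhere a row of 0 stood beside a counted row of the same host, as SNORD25 (0) and SNORD31 (584 counts) in SNHG1. A count of 0 may therefore not limit the level of these snoRNAs.

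EPB41L4A-AS1, the host of the H/ACA snoRNA SNORA13 (chromosome 5, 112160526 to 112164276, plus strand), was next by p-value. Its DMSO values were 32.2, 32.8, 38.8, 31.0, 38.2 and 22.3 CPM, and its tunicamycin values 33.5, 52.0, 38.8, 44.2, 43.2 and 42.4 CPM. The groups overlapped through tunicamycin 1 and 3, which lay among the DMSO samples, and DMSO 6 was the lowest of all. The log2 fold change was 0.38 ± 0.14 (95% interval 0.08 to 0.68, adjusted p = 0.12), and 0.39 with the block (adjusted p = 0.049). Without any single library the adjusted p was 0.061 to 0.23. EPB41L4A, the gene on the other strand that the transcript overlaps, had an estimate of 0.33 ± 0.11 (adjusted p = 0.083, or 0.021 with the block) and was higher in 6 of 6 pairs. Whether their reads are separate cannot be told without the strand setting.

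SNHG1 is the host of 8 box C/D snoRNAs (chromosome 11, 62851988 to 62855914, minus strand). It was measured at 40.8, 26.7, 44.8, 30.8, 29.4 and 30.1 CPM in DMSO 1 to 6 and at 58.6, 30.5, 40.5, 42.8, 34.7 and 39.4 CPM in tunicamycin 1 to 6. It was higher with tunicamycin in 5 of 6 pairs, the exception being number 3, and the groups overlapped widely. The log2 fold change was 0.29 ± 0.16 (adjusted p = 0.30, or 0.068 with the block). SLC3A2, which encodes the heavy chain shared by several amino acid transporters, starts 188 bases from SNHG1 on the other strand, and had 350 ± 92 CPM in DMSO and 618 ± 138 CPM in tunicamycin, a rise of 0.81 ± 0.15 on the log2 scale (adjusted p = 0.0036).

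**Figure D2:**
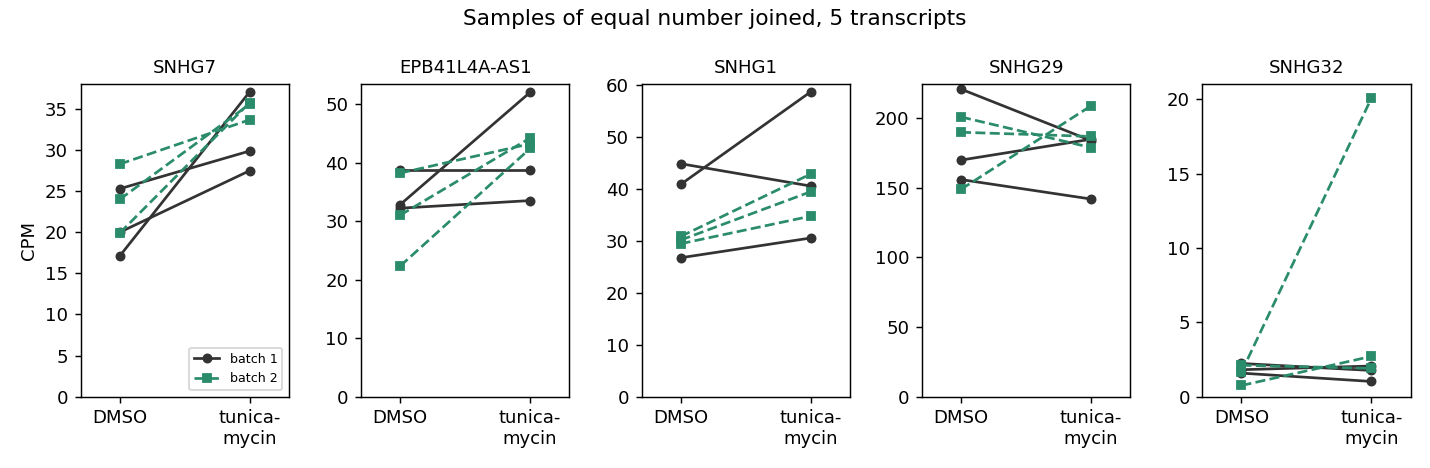
CPM of 5 transcripts in each sample, with DMSO and tunicamycin samples of the same number joined (circles and solid lines, batch 1; squares and dashed lines, batch 2). All 6 lines of SNHG7 rise, those of SNHG29 go both ways, and SNHG32 stands out through tunicamycin 4 alone, at 20.1 CPM.

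The 4 most abundant members that were not called are SNHG29, SNHG14, SNHG6 and ZFAS1, and the 5 with the most counts hold 55.6% of all member counts (SNHG29 alone 20.3%). SNHG29, host of SNORD49A, SNORD49B and SNORD65, was at 221, 170, 156, 190, 201 and 149 CPM in DMSO 1 to 6 and at 184, 185, 142, 187, 179 and 209 CPM in tunicamycin 1 to 6. The groups lay over each other, with means of 181 ± 28 and 181 ± 22 CPM and a log2 fold change of -0.01 (95% interval -0.26 to 0.25).

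SNHG14 is the very long imprinted transcript of the Prader-Willi region that carries the SNORD115 and SNORD116 clusters and runs antisense to UBE3A. It was at 99.0, 135, 154, 127, 60.6 and 97.7 CPM in DMSO and at 115, 105, 134, 102, 108 and 98.7 CPM in tunicamycin. DMSO 5 lay below all other samples, and the rest overlapped, for a log2 fold change of -0.01 (95% interval -0.35 to 0.34).

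SNHG6, host of SNORD87, was at 104, 63.6, 89.5, 75.1, 119 and 57.9 CPM in DMSO and at 65.6, 93.5, 75.2, 88.7, 81.4 and 86.0 CPM in tunicamycin. Both the highest and the lowest values, DMSO 5 and DMSO 6, were DMSO samples, and the log2 fold change was -0.06 (95% interval -0.41 to 0.30).

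ZFAS1, antisense to the start of ZNFX1 and host of the SNORD12 family, was at 77.8, 46.6, 73.6, 60.4, 83.9 and 41.0 CPM in DMSO and at 82.1, 68.3, 63.7, 68.5, 62.0 and 73.1 CPM in tunicamycin. DMSO 2, 4 and 6 lay below every tunicamycin sample while DMSO 5 lay above every one, and the log2 fold change was 0.12 (95% interval -0.23 to 0.48).

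Levels per length put the members in another order. This order is approximate, because the annotation behind the counts is not given and may differ from GENCODE 29. SNHG29, for example, is named LRRC75A-AS1 there. Divided by the GENCODE 29 exon length, SNHG6 led in DMSO at 68.0 CPM per kb, then SNHG8 at 58.7, SNHG29 at 48.2, ZFAS1 at 28.5 and SNHG19 at 27.5. The SDs ran from 7.4 to 19.0 CPM per kb (n = 6), and neighbours in this order differed by less than the larger of their SDs except SNHG29 and ZFAS1. SNHG14, second by counts, was at 2.59 CPM per kb with annotated exons that sum to 43324 bases.

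**Figure D3:**
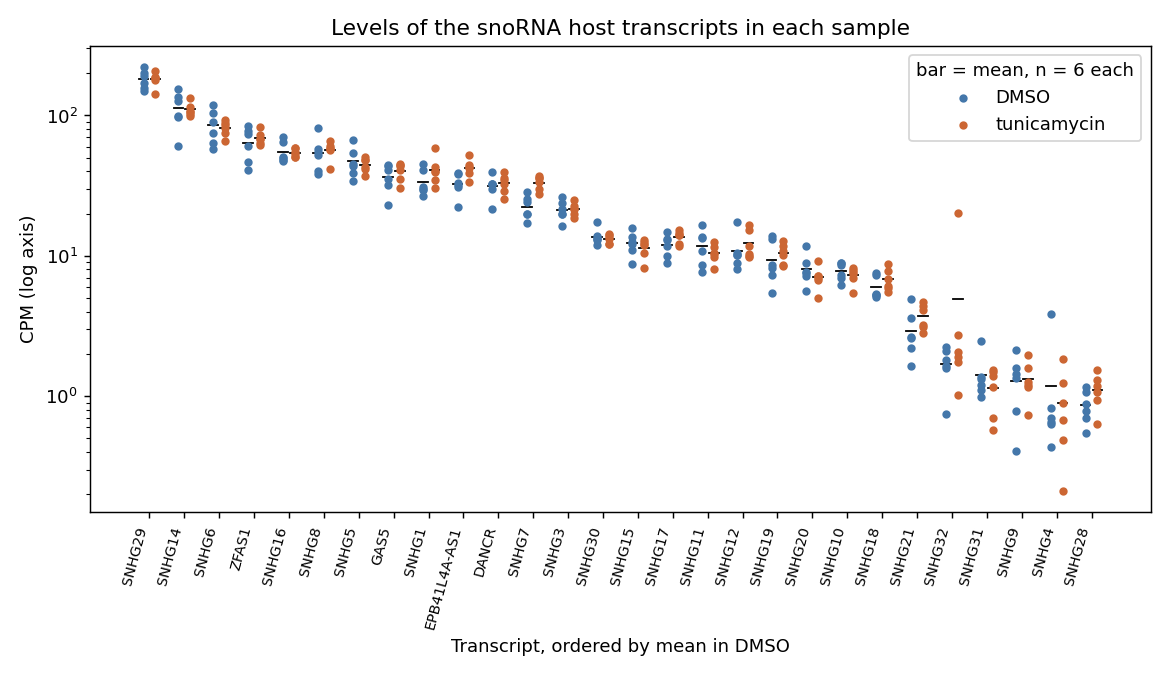
CPM of each tested transcript in each sample on a log axis, with black bars at the mean of 6 samples per group. DMSO and tunicamycin points overlap for every transcript, SNHG29 is highest at 181 CPM, and the outlying high point of SNHG32 is tunicamycin 4.

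GAS5, which carries 10 box C/D and 1 H/ACA snoRNA and is widely used as a marker of nonsense-mediated decay, was at 23.1 to 44.7 CPM in DMSO (median 38.1) and 30.6 to 45.0 CPM in tunicamycin (median 42.2). These ranges overlapped almost fully, and the log2 fold change was 0.12 ± 0.16 (adjusted p = 0.70). The interval of the difference, -0.21 to 0.46, leaves out a rise of 1.5-fold. DANCR, host of SNORA26 and known for holding progenitor cells undifferentiated, had a log2 fold change of 0.06 ± 0.13 (interval -0.23 to 0.34).

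Among the other hosts of box C/D snoRNAs, SNHG16 had a log2 fold change of -0.02, SNHG5 of -0.08, SNHG30 of -0.04, SNHG18 of 0.19 and SNHG19 of 0.14. Their SEs ran from 0.11 to 0.22, and their adjusted p from 0.60 to 0.93. The hosts of H/ACA snoRNAs included SNHG3 at 0.02, SNHG8 at 0.07, SNHG15 at -0.12, SNHG17 at 0.19 and SNHG11 at -0.16, with adjusted p from 0.45 to 0.93. SNHG12, which carries both classes, stood at 0.19. The scaRNA hosts SNHG10, SNHG20 and SNHG21 had estimates of -0.10, -0.21 and 0.37. Estimates of both signs thus occurred in each class.

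The 5 members with a DMSO mean under 2 CPM were SNHG9, SNHG4, SNHG28, SNHG31 and SNHG32. SNHG9 had a log2 fold change of 0.12, SNHG4 of -0.22, SNHG28 of 0.38 and SNHG31 of -0.28, with SEs from 0.27 to 0.57, and each of these 4 intervals reached beyond 1.5-fold. A further 4 members had too few counts to be tested: SNHG22 had 29 counts in all samples, SNHG25 32, SNHG26 16 and SNHG27 2. The 2 counts of SNHG27 were in DMSO 5, and 0 in the tunicamycin group allows up to 0.0225 unscaled CPM (3 counts in 133045769).

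SNHG32 (chromosome 6, 31834608 to 31839766, plus strand) lies in the MHC class III region and hosts 2 box C/D snoRNAs. It was measured at 0.748 to 2.23 CPM in DMSO (median 1.73), and at 1.76, 2.06, 1.02, 20.1, 1.90 and 2.71 CPM in tunicamycin 1 to 6. Tunicamycin 4 stood alone, and the other 5 overlapped with DMSO. The log2 fold change was 1.13 ± 0.67 (adjusted p = 0.35) and 0.16 (adjusted p = 0.87) without tunicamycin 4. Genes within 500 kb of it were then inspected, a look chosen after these values were seen. Of 18 genes there with a mean of at least 1 CPM, 6 (33.3%) had 1 library over 4 times the median of the others, against 463 of 15366 other genes (3.01%). They are NEU1 (16.3 CPM in tunicamycin 5 against a median of 1.07), VARS1 (DMSO 6), TNXB (DMSO 3), ABHD16A and BAG6 (both tunicamycin 3) and NELFE (DMSO 1), so different libraries were high for different genes. What underlies these single high libraries was not tested.

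The snoRNAs themselves gave few counts. Of the 64 snoRNAs inside members other than SNHG14, 16 averaged under 1 count per sample and 13 averaged 10 or more. The most counts of the 64 were those of the small Cajal body RNA SCARNA17, 1311 in all samples, inside SNHG22, which had 29. Small Cajal body RNAs are among the 64 but not among the snoRNA rows that follow, which are SNORA and SNORD symbols only. In all, 110 snoRNA rows were tested and 2 were called higher, 0 lower (median log2 fold change 0.03). Among all genes 7.84% were called either way. Of these 110, 19 lie in 9 members; 0 of the 19 were called by edgeR, 1 had an unadjusted p under 0.05 and 12 were above 0, with a median of 0.12. The smallest p among the 19 was that of SNORD12, inside ZFAS1, at 1.27 ± 0.55 (adjusted p = 0.19). SNORD104, inside SNHG25, which had too few counts to be tested itself, stood at -0.33 ± 0.25 (adjusted p = 0.48). The 2 called rows, SNORD19B at 1.82 ± 0.37 (adjusted p = 0.0075) and SNORD19 at 1.74 ± 0.48 (adjusted p = 0.040), lie in introns of the protein-coding gene GNL3. Both are low: SNORD19B had 171 counts in all samples, with means of 0.28 CPM in DMSO and 0.96 CPM in tunicamycin. SNORD19 had 152 counts, with means of 0.23 and 0.85 CPM. Of the other tested snoRNA rows in GNL3, SNORD19C had an estimate of 1.04 (adjusted p = 0.12) and SNORD69 of 0.10 (adjusted p = 0.89). SNORD63B, inside HSPA9, had an estimate of 0.97 ± 0.32 (adjusted p = 0.083, or 0.023 with the block), and SNORD63, inside the same gene, one of 0.01 (adjusted p = 0.99). Reads of unspliced host RNA can count toward an intronic snoRNA row.

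Protein-coding genes that host snoRNAs outside the ribosome were compared as a list of 34 tested genes: 2 rose, 0 fell, and the median was -0.01. Among all genes 4.56% were called higher and 3.29% lower. The 2 were GNL3, which encodes nucleostemin, with 58.2 ± 6.7 CPM in DMSO and 136 ± 13 CPM in tunicamycin (log2 fold change 1.22 ± 0.10, adjusted p = 4.9e-06), and HSPA9, the mitochondrial HSP70, from 261 ± 21 to 414 ± 55 CPM (0.67 ± 0.11, adjusted p = 0.0015). EIF5 had an estimate of 0.26 (adjusted p = 0.11).

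Genes of the pathways that make snoRNAs or remove their host transcripts were read as lists, beside the 7.84% of all genes that were called either way and the 17.3% with the block. Of 19 snoRNP proteins and assembly factors tested, 0 were called by edgeR (3 at an unadjusted p under 0.05, median -0.16; with the block RUVBL2 and NOP10 were lower), and those of smallest p were RUVBL2 (-0.28), NOP10 (-0.40) and NAF1 (0.36), none with an adjusted p under 0.10. Of 22 nonsense-mediated decay factors 1 fell and 0 rose (median 0.01): UPF3B, which links the exon junction complex to the decay factors, from 45.7 ± 7.9 to 34.4 ± 4.5 CPM (-0.41 ± 0.12, adjusted p = 0.044), while GSPT2 and UPF3A had estimates of -0.29 (adjusted p = 0.12, or 0.030 with the block) and -0.25. Of 27 genes of rRNA synthesis and processing, 0 were called (7 at an unadjusted p under 0.05, median -0.01; with the block MYC and POLR1E were higher and WDR12 and UBTF lower), with MYC at 0.90, POLR1E at 0.37, WDR12 at -0.28, UBTF at -0.24 and POLR1C at -0.24. A list of 16 genes with 5′ TOP mRNAs held translation factors and also HNRNPA1, which is not one. Of the 16, 0 were called (1 at an unadjusted p under 0.05, HNRNPA1, median -0.05), and with the block 1 was higher, EIF4B. Estimates were -0.26 for HNRNPA1, 0.29 for EIF4B and 0.25 for EEF2.

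Cytosolic ribosomal protein genes, a large class with TOP starts, had 0 of 72 called (2 at an unadjusted p under 0.05). Their median was -0.19, compared with 0.06 in the members. RPS26 had an estimate of -0.28, RPS19 of -0.39 and RPL10 of 0.26. Counts of these genes are uncertain because of processed pseudogenes. Their share of all counts was 3.38 ± 0.66% in DMSO and 2.97 ± 0.33% in tunicamycin. Among 17 long noncoding RNAs that are not snoRNA hosts, 1 rose (OIP5-AS1, 0.39 ± 0.11, adjusted p = 0.042) and 0 fell (4 of 17 at an unadjusted p under 0.05, median 0.15; with the block 3 higher and 1 lower). LINC-PINT had an estimate of 0.39 (adjusted p = 0.14, or 0.045 with the block). KCNQ1OT1 and NEAT1 had estimates of -1.18 and 0.99 that missed the threshold (adjusted p = 0.075 and 0.085, or 0.0012 and 0.0025 with the block).

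Neighbouring protein-coding genes were read for each member, since overlapping genes can share reads. Of the genes named here that overlap a member or start within 1 kb of it on the other strand, SLC3A2 was called, as given with SNHG1. Other-strand neighbours of members included ZNFX1 (ZFAS1) at 0.11, ZBTB37 (GAS5) at 0.33, UBE3A (SNHG14) at -0.14, LRRC75A (SNHG29) at -0.02, SIL1 (SNHG4) at 0.46 and MCMDC2 (SNHG6) at 0.12. None of these was called. GLRX5 (SNHG10) stood at -0.08, TRNAU1AP (SNHG12) at -0.02, FSD2 (SNHG21) at -0.01 and ABCA12 (SNHG31) at -0.10. None of these was called either. Besides others named here, divergent starts within 1 kb included those of SEMA5A (SNHG18) at 0.26, TRAF7 (SNHG19) at 0.00, BARD1 (SNHG31) at 0.21 and RPS2 (SNHG9) at -0.24. On the same strand lay SNRPN (SNHG14) at 0.15, SEC14L1 (SNHG20) at 0.10, RCC1 (SNHG3) at -0.20 and MATR3 (SNHG4) at -0.17. Of the neighbours listed from ZNFX1 to MATR3, the ER co-chaperone gene SIL1 alone was called with the block (adjusted p = 0.0033, against 0.12 without). Next to the untested SNHG22, ACAA2 stood at -0.14 and MYO5B at 0.09, neither called.

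The same DMSO libraries were high or low for many members. DMSO 5 had the highest DMSO value for 16 of 28 members, DMSO 2 the lowest for 14 and DMSO 6 the lowest for 9. Among the 18 members with a DMSO mean of 10 CPM or more, DMSO 5 was highest for 12 (66.7%), compared with 24.8% of all genes at that level. DMSO 5 is also the library with the largest sum of heart muscle markers, 2269 CPM, and with the largest ribosomal protein share, 4.39%, and DMSO 2 has the smallest sum, 11.5 CPM, and a ribosomal share of 2.66%. Of the other libraries some followed that order and some did not. DMSO 1, with a heart sum of 573 CPM, had a ribosomal share of 3.88%, and DMSO 6, with 33.4 CPM, one of 2.955%. DMSO 3, with a heart sum of 22.2 CPM, had the largest member share (0.101%) and the highest DMSO value for 7 members. Without SNHG14 and SNHG32 the member share was 0.0839% in DMSO 3, 0.0898% in DMSO 5 and 0.0888% in DMSO 1. Tunicamycin 5, with a heart sum of 1175 CPM, was highest in its group for 2 members. The part of heart muscle cells and of the ribosomal share in these levels was not tested. In tunicamycin, number 6 was highest for 12 members and number 3 lowest for 10.

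The spread among samples was smaller in tunicamycin. The coefficient of variation of the CPM (SD over mean, 6 samples) was lower in tunicamycin than in DMSO for 25 of 28 members (89.3%), with medians of 25.2% and 14.7%. It was lower for 59.9% of all genes (medians 22.1% and 19.6%) and for 65 of 72 ribosomal protein genes (90.3%). The exceptions were SNHG1, SNHG28 and SNHG32, the last through tunicamycin 4.

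**Figure D4:**
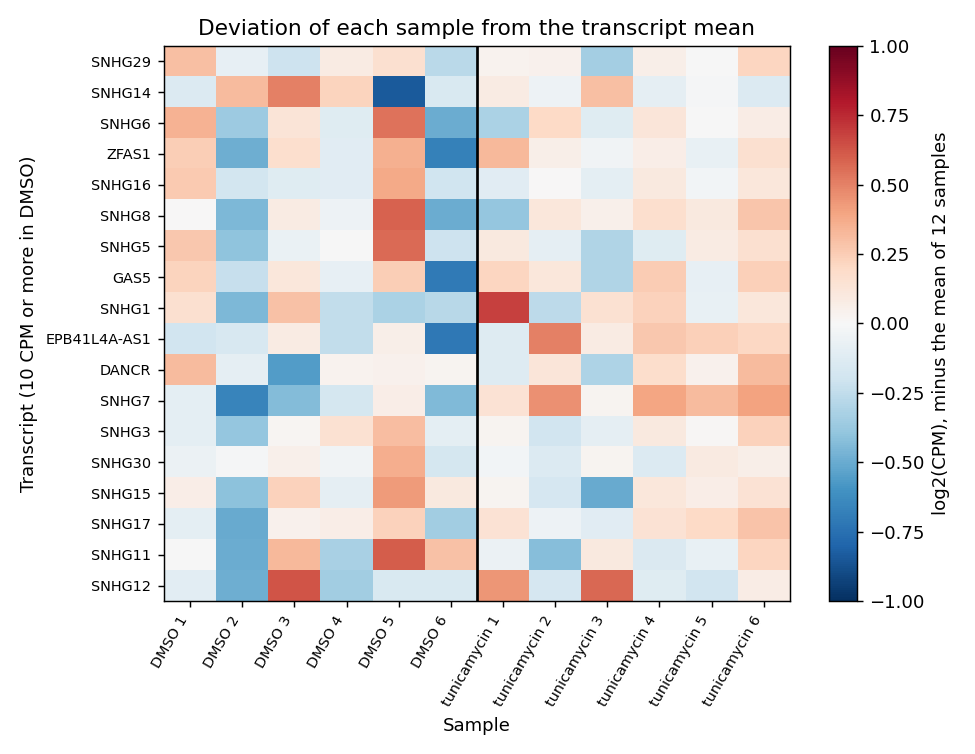
Log2 CPM of the 18 transcripts with at least 10 CPM in DMSO, minus the mean of the 12 samples, with the DMSO samples left of the line. DMSO 5 is red and DMSO 2 and 6 are blue for most transcripts, SNHG14 goes the other way in DMSO 2 and 5, and the tunicamycin columns are paler.

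The response was read within each batch. It had the same sign in both batches for 18 of 28 members, with a median log2 fold change of -0.02 for batch 1 and 0.13 for batch 2 (all genes 0.00 in both). The interaction of treatment and batch was called for 0 members and for 0 of all genes by edgeR (1 and 168 at an unadjusted p under 0.05). The smallest unadjusted p among the members was 0.024, for SNHG32, whose batch estimates of -0.22 and 2.45 differ through tunicamycin 4.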

How the data were processed

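RNA of 6 DMSO and 6 tunicamycin samples was measured by bulk sequencing (Qiagen RNeasy, NEBNext Ultra II, per the labels' protocols). The authors deposited raw read counts for 28278 symbols; cutadapt 4.4, HISAT2 2.1.0, featureCounts 2.0.6 and GRCh38 are named per the submitters' processing notes. Annotation, strand setting and RNA selection: not given in the sources used here. Totals ran from 17523442 to 28872269 counts. No column belonged to another series.

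Genes passing filterByExpr (17137) were scaled with TMM and tested with edgeR 4.0.16 (R 4.3.3), quasi-likelihood, batch as covariate, Benjamini-Hochberg over all genes, threshold 0.05. Adjusted p-values are edgeR's unless another tool is named, and all are two-sided. DESeq2 1.42.0, limma-voom (limma 3.58.1), other scalings, no filter, each batch alone and each sample left out were alternatives. The scripts were tested on simulated data. Positions are from GENCODE 29 and RefSeq GRCh38.p14, in which 26998 symbols were found.

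Sample numbers were taken to pair the samples: deviations from the group means within a batch correlated at 0.50, 0.58, 0.52, 0.12, 0.18 and 0.18 for numbers 1 to 6, though what a number marks is unlabelled. The highest correlation of each DMSO sample with a tunicamycin sample of another number was 0.27, 0.20, 0.10, 0.07, 0.02 and 0.08. The grounds for pairing are thus weaker in batch 2. The main fit holds batch and not the number, so its SEs, intervals and adjusted p-values do not use the pairing. Values with sample number as a block are given where they change a call.

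All tested members were to be named, with every sample's value for those called and for the 4 most abundant others, plus neighbouring genes (some of which are not reported here) and the 3 genes of smallest p in each other list (those listed in the text, with ribosomal protein genes and snoRNA rows). Members and lists were chosen with earlier results of these data known.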

Additional observations from a re-analysis of the deposited data

Results flagged for a closer look

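In 4 of 56 groups of 6 samples, 1 sample lay far from the others, and chance alone flags about 1 group in 20. SNHG12 was at 17.3 CPM in DMSO 3, with the next DMSO sample at 10.4 CPM. SNHG31 was at 2.48 CPM in DMSO 5 (next 1.37). SNHG32 was at 20.1 CPM in tunicamycin 4 (next 2.71). SNHG4 was at 3.85 CPM in DMSO 3 (next 0.823). None of these transcripts was called.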

How the results depend on the processing

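SNHG7 was called in every fit over all 12 samples, in each of the 12 that left out 1 sample and in the fit without numbers 1 and 5, which was chosen after seeing the data; it was not called in either batch alone. The count of members called was 1, with the replicate block 2, and 0 in batch 1 alone and in batch 2 alone. The count of all genes called, 1344, became 2967 with the block, 2096 with DESeq2, 57 in batch 1 alone, 654 in batch 2 alone, 489 without numbers 1 and 5, and 791 (without tunicamycin 4) to 1399 with 1 sample left out. The block changed no call of a member other than that of EPB41L4A-AS1.

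Members whose sign changed had small estimates or wide intervals. In batch 1 alone DANCR was at -0.021, GAS5 at -0.015 and SNHG32 at -0.22. In batch 2 alone SNHG14 was at 0.12, SNHG16 at 0.020, SNHG29 at 0.092, SNHG3 at -0.010, SNHG4 at 0.42, SNHG6 at 0.025 and SNHG9 at -0.39. With the block SNHG14 was at 0.027 and SNHG29 at 0.0017, and with limma-voom at 0.030 and 0.0058. Upper-quartile factors put SNHG3 at -0.0059. Without numbers 1 and 5, SNHG16 was at 0.18, SNHG29 at 0.11, SNHG5 at 0.079 and SNHG6 at 0.26.

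With 1 sample left out, the range was -0.020 to 0.17 for DANCR, -0.13 to 0.093 for SNHG14, -0.077 to 0.058 for SNHG16, -0.068 to 0.078 for SNHG29, -0.026 to 0.072 for SNHG3, -0.090 to 0.035 for SNHG30, -0.49 to 0.44 for SNHG4, -0.15 to 0.041 for SNHG5, -0.16 to 0.083 for SNHG6, -0.031 to 0.22 for SNHG8 and -0.11 to 0.26 for SNHG9. The cause of these changes was not tested.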
